A study of Mus musculus with 23 samples.

Results

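Chemokines are small secreted proteins that steer leukocytes and other cells along concentration gradients, and their receptors couple to Gi proteins. The members described here are 52 mouse genes out of 18193 with a single symbol in the array annotation. Their symbols follow the numbered Ccl, Cxcl, Ccr or Cxcr names (CC and CXC ligands and receptors) or are Cx3cl1, Cx3cr1, Xcl1 or the 4 atypical receptors Ackr1 to Ackr4. Genes of the chemokine system with other symbols, such as Pf4, Ppbp and Xcr1, are not members. The members comprise 33 ligands and 19 receptors, and each is represented by its probe set of highest mean over all arrays. Of the 52, 44 passed the filter on low values (above the 40th percentile of the array on at least 2 arrays) and were tested among 15378 genes.

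The study isolated polyA RNA from purified mammary epithelial cells of female C57BL/6 mice and hybridised it to 23 Affymetrix arrays. The labels name 3 cell types, which are mature luminal cells, luminal progenitors and mammary epithelial stem cells. They name the stages as virgin at 3 weeks and at 9 weeks, pregnant at day 10 (D10), day 16 (D16) and day 19 (D19), and retired breeder. Groups of 1 stage and 1 cell type numbered 16, of which 7 had 2 arrays and 9 had 1 array, and D19 was measured in mature luminal cells only. No treatment or genetic change is named, and the labels give neither the age of the retired breeders nor the sorting markers nor any pooling of animals. The labels do not say whether arrays of a group came from separate animals, so each p-value here reflects the spread among arrays alone, and part of that spread can be technical. In the fit of all groups, the spread comes from the 7 groups of 2 arrays, each with 1 titled replicate 1 and 1 titled replicate 2. The 9 groups of 1 array add none. Same-numbered arrays deviated together across the 7 groups. The fit without a replicate term counts that shared offset as spread, so its standard errors include it.

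In the mammary gland, Csf1 recruits macrophages and Ccl11 recruits eosinophils to growing ducts, and CXC chemokines of the Cxcl1 group attract neutrophils through Cxcr2. Cxcl12 signals through Cxcr4 and is removed by the scavenging receptor Ackr3. The atypical receptors bind chemokines without G protein signalling, Ackr1 on venular endothelium and red cells, Ackr2 and Ackr4 as scavengers of inflammatory and homeostatic CC chemokines.

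The promoters of Cxcl1, Cxcl2 and Cxcl3, which attract neutrophils, are shown because Cxcl2 and Cxcl3 differed with the replicate number of the arrays (described further on) while Cxcl1 did not pass that test, that of Ccl20 because it shares their motif and was higher in pregnancy, and that of Cxcl15 because it fell most in pregnancy and lies in the same part of chromosome 5. Of the 52 members, 39 have an entry in the RefSeq promoter table (build GRCm38.p6), which spans 250 bases before to 50 after a gene's start. Capitals mark each match to GGG, any 2 bases and TTTCC in a row, a form of the site bound by NF-κB, on either strand. All 5 genes lie on the plus strand, and the windows are chr5:90890995-90891294 for Cxcl1, chr5:90903649-90903948 for Cxcl2, chr5:90785851-90786150 for Cxcl3, chr1:83116516-83116815 for Ccl20 and chr5:90794284-90794583 for Cxcl15.
Cxcl1: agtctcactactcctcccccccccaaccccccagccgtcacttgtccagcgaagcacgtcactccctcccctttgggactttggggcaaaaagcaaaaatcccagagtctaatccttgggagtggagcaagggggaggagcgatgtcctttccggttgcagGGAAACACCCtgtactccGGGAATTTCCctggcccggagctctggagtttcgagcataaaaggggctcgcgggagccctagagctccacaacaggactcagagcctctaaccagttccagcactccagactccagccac
Cxcl2: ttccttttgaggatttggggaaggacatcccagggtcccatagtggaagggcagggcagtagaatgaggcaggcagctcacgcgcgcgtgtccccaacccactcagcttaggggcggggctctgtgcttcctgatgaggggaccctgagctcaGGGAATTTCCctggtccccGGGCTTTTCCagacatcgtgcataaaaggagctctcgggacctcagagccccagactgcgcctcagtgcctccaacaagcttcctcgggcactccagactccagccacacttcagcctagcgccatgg
Cxcl3: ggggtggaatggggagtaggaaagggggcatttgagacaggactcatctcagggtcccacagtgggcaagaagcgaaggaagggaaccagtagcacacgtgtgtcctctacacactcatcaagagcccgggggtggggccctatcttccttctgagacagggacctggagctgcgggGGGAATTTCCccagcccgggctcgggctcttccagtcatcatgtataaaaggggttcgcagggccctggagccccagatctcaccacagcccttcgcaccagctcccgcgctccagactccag
Ccl20: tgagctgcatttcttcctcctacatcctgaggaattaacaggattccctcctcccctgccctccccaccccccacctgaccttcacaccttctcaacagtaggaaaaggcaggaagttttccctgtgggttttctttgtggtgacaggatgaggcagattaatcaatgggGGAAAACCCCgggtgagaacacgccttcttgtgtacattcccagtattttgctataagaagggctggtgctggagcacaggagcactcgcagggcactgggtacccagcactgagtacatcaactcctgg
Cxcl15: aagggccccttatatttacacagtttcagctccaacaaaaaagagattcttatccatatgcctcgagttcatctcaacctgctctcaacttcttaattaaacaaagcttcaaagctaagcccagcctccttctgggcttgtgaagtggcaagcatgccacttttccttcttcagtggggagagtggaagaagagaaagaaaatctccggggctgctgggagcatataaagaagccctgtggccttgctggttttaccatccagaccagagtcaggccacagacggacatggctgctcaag
Counted from the start at +1, the matches of Cxcl1 begin at -89 (minus strand) and -71 (plus strand), those of Cxcl2 at -97 and -78 (both plus strand), that of Cxcl3 at -73 (plus strand) and that of Ccl20 at -80 (minus strand). Cxcl15 holds no match in this window. Among the members in the table, 6 of 39 hold the motif, the others being Ccl9 and Ccr3. Counted by window, 6 of 43 member windows hold it, and 1.63% of all 32851 windows do. A further 3 motifs were searched in the same way. The interferon-response form, TTTC, any 2 bases and TTTC, was found in Cxcl10 and Cxcl14 and in 3.44% of all windows. The STAT form TTCNNNGAA was found in Ccl17, Cxcl14 and Ccr6 and in 8.3% of all windows. The TATA box letters TATAAA were sought anywhere in the window and on either strand. They were found in 12 of the 39, Cxcl3 (-30) and Cxcl15 (-27) among them. By window, they were in 12 of 43 member windows and in 13.6% of all windows. Matches among members began from -224 (Ccl9) to -6 (Cx3cl1), so a match need not be a TATA box. These are letter matches and were not tested for binding.

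Of 33 ligands, 10 lay above the median of their array on all 23 arrays and 2 on none. Of 19 receptors, 4 did so on all 23 arrays and 7 on none. The 10 ligands were Cxcl1, Cxcl2, Cxcl9, Cxcl10, Cxcl14, Cxcl16, Cx3cl1, Ccl5, Ccl25 and Ccl27a, and the 4 receptors were Cxcr4, Ackr1, Ackr3 and Ackr4. The 8 members not kept by the filter were the ligands Ccl1 and Ccl24 and the receptors Ccr2, Ccr3, Ccr8, Ccr10, Cxcr2 and Cx3cr1. Their deposited log2 values reached at most 3.36 (Ccl1), 2.8 (Ccl24), 3.62 (Ccr2), 3.67 (Ccr3), 3.11 (Ccr8), 5.29 (Ccr10), 4.42 (Cxcr2) and 5.64 (Cx3cr1). Ccr2 and Cx3cr1 mark monocytes and macrophages, and Cxcr2 marks neutrophils. These receptors alone do not show which such cells were present, and other leukocyte markers are given further on. Levels of different probe sets are not comparable in absolute terms, so members are compared only with themselves across arrays.

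**Figure D1:**
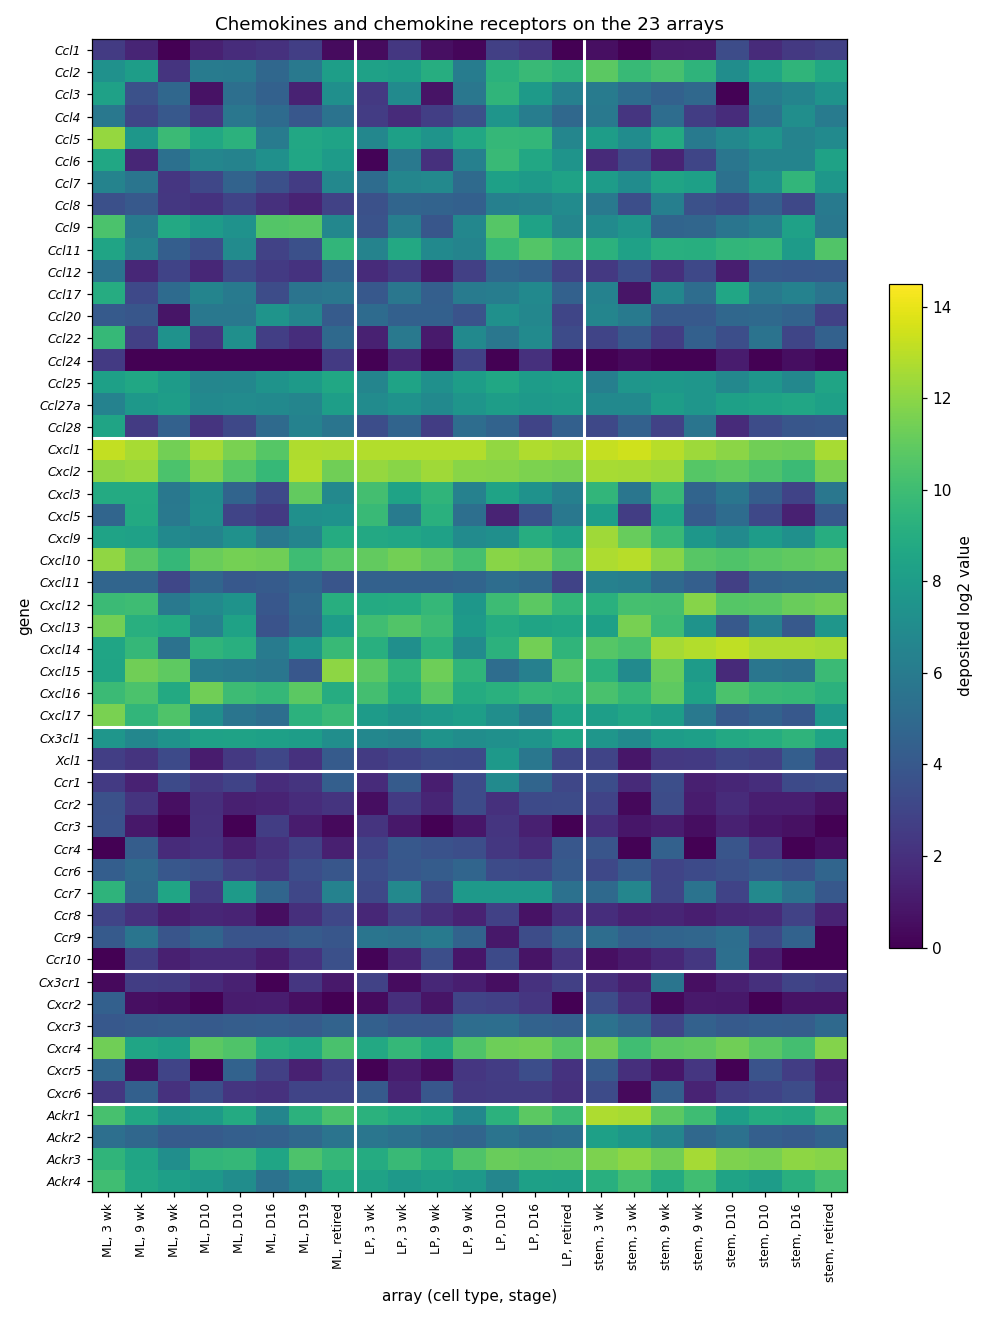
Deposited log2 values of all 52 members (rows, grouped into CC, CXC, and CX3C or XC ligands, CC receptors, CXC or CX3C receptors and atypical receptors) on the 23 arrays (columns, grouped into mature luminal, luminal progenitor and stem, each in stage order). Cxcl1, Cxcl2, Cxcl10, Ackr3 and Cxcr4 are bright on all columns, while Cxcr2 and Ccr3 stay at or below 4.42 and 3.67.

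The probe sets of highest mean signal, an order of probe sets and not of transcript amounts, were for ligands and receptors Cxcl1, Cxcl2 and Cxcl10, and Ackr3, Cxcr4 and Ackr1. Cxcl1 ran between 10.67 and 13.45 log2 over the 23 arrays, with its lowest value in D16 mature luminal cells and its highest in 3-week stem cells. Cxcl2 ran from 9.69 in D16 mature luminal cells to 12.85 in D19 mature luminal cells. Cxcl10, an interferon-induced ligand of Cxcr3, lay between 9.66 and 12.94 and was highest on both 3-week stem arrays. Of their receptors, Cxcr2 was above the array median on 0 arrays and Cxcr3 on 3 of 23.

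Single arrays held the highest values of many members. The 3-week mature luminal array was highest for 11 of 52 members, among them Ccl5 (12.18 log2), Ccl22 (9.73), Ccr7 (9.41), Ccl17 (8.99) and Ccl28 (8.45), of which Ccl17, Ccl22 and Ccr7 belong to dendritic cell and T cell trafficking. The D10 luminal progenitor array was highest for 5 members, the myeloid and lymphoid products Ccl3 (9.5), Ccl4 (7.55), Ccl6 (9.8) and Xcl1 (7.82) and the receptor Ccr1 (6.94). Members that were called in no comparison between groups spanned wide ranges too: Ccl4 ran from 1.79 to 7.55, Ccl12 from 0.96 to 5.5 and Cxcl11 from 2.73 to 6.39. Among such receptors, the gut homing receptor Ccr9 ran from 0 to 5.92, Ccr4 from 0 to 4.48, Cxcr5 from 0 to 4.82 and Cxcr3 from 3.01 to 5.44.

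Before the comparisons, the cell type labels were set against marker genes. Of 10 basal and myoepithelial markers, 9 were lower in mature luminal cells and 8 in luminal progenitors than in stem cells (limma, adjusted p under 0.05), with mean levels per array of 6.69 to 9.58 in mature luminal cells, 6.92 to 10.93 in luminal progenitors and 9.76 to 12.71 in stem cells. Of the 4 hormone-sensing markers of mature luminal cells that were tested, 0 differed between mature luminal cells and luminal progenitors (limma, adjusted p under 0.05), and 0 at an unadjusted p under 0.05. Of 10 luminal markers, 2 were higher in mature luminal cells and 1 in luminal progenitors than in stem cells (9 and 7 differed at an unadjusted p under 0.05). Of 6 luminal progenitor markers, 1 was higher in luminal progenitors than in stem cells, and 1 was lower in mature luminal cells than in luminal progenitors. Markers of cells outside the epithelium were read on the arrays too. The 10 fibroblast markers averaged 3.72 to 7.18 in mature luminal cells, 6.21 to 10.02 in luminal progenitors and 7.16 to 9.01 in stem cells, and the 12 endothelial markers 4.56 to 7.94, 5.63 to 7.42 and 5.6 to 11.07 in the same order. At most 1 marker of a list was at 0 on any array. The 3-week mature luminal array had the strongest 3′ bias of Gapdh probe sets (5.16 log2, against 0.87 to 3.77 on the others) and the highest mean of 5 pan-leukocyte markers (9.62). In such bulk samples, fewer cells of a type and less RNA per cell cannot be told apart.

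Differences between cell types were averaged over the 5 stages with all 3 types, and both luminal types were set against the same stem cell arrays. Where the only array of a group was left out, its stage dropped out of the average. Such omissions therefore also changed the comparison. Mature luminal cells differed from stem cells in 10 of 44 members, 8 lower and 2 higher (limma, adjusted p under 0.05), against 8.34% of all genes tested (6.78% lower and 1.56% higher). At an unadjusted p under 0.05 the counts were 16 of 44 members and 22.2% of all genes. Luminal progenitors differed from stem cells in 3 of 44, all lower, against 4.38% of all genes (3.6% lower), and in 9 at an unadjusted p under 0.05, against 18.9%. Mature luminal cells differed from luminal progenitors in 0 of 44, against 0.124% of all genes, and in 9 at an unadjusted p under 0.05, against 4.72%. The members that fell in mature luminal cells were 5 ligands (Cxcl14, Cxcl12, Ccl2, Ccl7 and Ccl11) and 3 atypical receptors (Ackr1, Ackr3 and Ackr4), and those that rose were Cxcl17 and Ccl9. The median difference over the 44 members was -0.04 log2 for mature luminal against stem cells, beside 0.03 over all genes. For luminal progenitors against stem cells it was 0.12 beside -0.04.

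Cxcl14, a CXC ligand made by many epithelia, gave the widest gap between cell types. It read 5.49 at the lowest, 8.83 at the median and 9.78 at the highest in mature luminal cells, and 7, 9.32 and 11.43 in luminal progenitors, against 10.33, 12.65 and 13.12 in stem cells. Mature luminal and stem arrays did not overlap, and 1 luminal progenitor array, D16, lay within the stem range. The difference was -4.04 ± 0.62 log2 (SE) for mature luminal against stem cells (adjusted p = 0.00205) and -2.98 ± 0.62 for luminal progenitors against stem cells (adjusted p = 0.0213). Both 3-week stem arrays (10.7 and 10.33) lay below the 6 other stem arrays, which ran from 12.57 to 13.12. Without the D10 luminal progenitor array, the luminal progenitor difference was -2.82 and its adjusted p 0.0586.

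Ackr3, the scavenger of Cxcl12, separated stem cells from both luminal types on all arrays. Its lowest, median and highest values were 7.17, 9.54 and 10.47 in mature luminal cells and 8.93, 10.53 and 11.18 in luminal progenitors, against 11.33, 11.76 and 12.53 in stem cells. The difference from stem cells was -2.83 ± 0.33 log2 in mature luminal cells (adjusted p = 0.000568) and -1.35 ± 0.33 in luminal progenitors (adjusted p = 0.0404). The second call was lost on leaving out any of 9 single arrays (adjusted p up to 0.0863) and with quantile normalization (-1.19, adjusted p = 0.0626). Among arrays titled replicate 1 the luminal progenitor difference was -2.37 (adjusted p = 0.0259), and among all other arrays -1.27 (adjusted p = 0.0989). Mature luminal cells were also lower than luminal progenitors by -1.48 ± 0.34 (adjusted p = 0.153, and 0.0379 with the replicate block, a fit with a term for arrays titled replicate 1).

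Cxcl12, the ligand shared by Cxcr4 and Ackr3 and a product of stromal cells in many tissues, followed the same order. Mature luminal cells read 3.92, 7.12 and 10 log2 (lowest, median and highest) and luminal progenitors 7.7, 9.59 and 10.83, against 9.21, 10.74 and 11.88 in stem cells. The difference between mature luminal and stem cells was -3.23 ± 0.60 (adjusted p = 0.00645). It was -1.87 among arrays titled replicate 1 (adjusted p = 0.216) and -3.86 among all other arrays (adjusted p = 0.0156). The 9-week mature luminal arrays read 10 on replicate 1 and 5.87 on replicate 2. Leaving out the D16 stem or the D16 mature luminal array gave -2.22 (adjusted p = 0.0772 and 0.0758). Cxcr4, the signalling receptor of Cxcl12, read 8.24, 9.71 and 11.34 in mature luminal cells and 8.75, 10.5 and 11.44 in luminal progenitors, against 10.06, 10.89 and 11.82 in stem cells. Its difference of -0.96 ± 0.32 between mature luminal and stem cells had an adjusted p of 0.0951, and of 0.0419 with the replicate block.

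Ccl2, Ccl7 and Ccl11, which recruit monocytes (Ccl2 and Ccl7) and eosinophils (Ccl11), fell in mature luminal cells against stem cells. Ccl2 read 2.2, 6.02 and 8.15 log2 (lowest, median and highest) in mature luminal cells, against 7.12, 9.47 and 10.85 in stem cells, a difference of -2.94 ± 0.81 (adjusted p = 0.0451). Ccl7 read 2.29, 4.06 and 6.77 in mature luminal cells, against 5.43, 7.86 and 9.56 in stem cells, a difference of -2.98 ± 0.61 (adjusted p = 0.0109). Ccl11 read 2.84, 5.42 and 9.55 in mature luminal cells, against 7.94, 9.25 and 10.59 in stem cells, a difference of -2.91 ± 0.60 (adjusted p = 0.011). All 3 overlapped between the cell types, with the 3-week and retired mature luminal arrays high for Ccl11 (8.46 and 9.55). Luminal progenitors read 6.1, 9.01 and 9.84 for Ccl2, 5.02, 6.81 and 8.36 for Ccl7 and 6.5, 8.74 and 10.63 for Ccl11, and did not pass the test against stem cells. The call of Ccl2 was lost on leaving out any of 13 single arrays (adjusted p up to 0.133). Those of Ccl7 and Ccl11 were lost without the D16 stem array (-2.22, adjusted p = 0.0817, and -2.36, adjusted p = 0.06) and without the D16 mature luminal array (-2.22, adjusted p = 0.0806, and -2.36, adjusted p = 0.0592).

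Fibroblast and endothelial markers were read beside Cxcl12, Ccl2, Ccl7 and Ccl11. In mature luminal against stem cells, 6 of 10 fibroblast markers and 7 of 12 endothelial markers fell (medians -2.5 and -1.81 log2), and their part in the chemokine differences was not tested. In luminal progenitors against stem cells, 0 of 10 fibroblast markers passed (median 0.26), 4 of 12 endothelial markers fell (median -1.21), and none of Cxcl12, Ccl2, Ccl7 and Ccl11 passed. The related Ccl8 read 1.42, 2.61 and 4.03 in mature luminal cells, against 3.62, 4.71 and 6.97 in luminal progenitors. Its difference was -2.87 ± 0.60 (adjusted p = 0.113, and 0.0289 with the replicate block). Between the same types, 3 of 10 fibroblast markers fell and 9 did so at an unadjusted p under 0.05 (median -3.38), and again their part was not tested.

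Ackr4 and Ackr1 fell in mature luminal cells as well, and Ackr2 passed in no cell type comparison. Ackr4, a scavenger of Ccl19, Ccl21 and Ccl25, read 5.45, 7.96 and 10.06 log2 (lowest, median and highest) in mature luminal cells and 6.67, 8.1 and 8.38 in luminal progenitors, against 8.01, 9.17 and 10.13 in stem cells. It fell by 1.28 ± 0.31 in mature luminal cells (adjusted p = 0.0242) and by 1.48 ± 0.31 in luminal progenitors (adjusted p = 0.0213). Leaving out the D16 stem or the D16 mature luminal array took D16 out of the average, so both gave the same difference over the other stages. The mature luminal difference was -0.67 without the D16 stem array (adjusted p = 0.295) and -0.67 without the D16 mature luminal array (adjusted p = 0.291), and without replicate 2 of 3-week stem cells it was -1.19 (adjusted p = 0.0525). The luminal progenitor difference was -1.39 without that same 3-week array (adjusted p = 0.0524). Neither subset of arrays by replicate number kept either call: within titled replicate 1 the differences were -0.43 and -0.83, and within the other arrays -1.57 and -1.74 (adjusted p between 0.0675 and 0.551).

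Ackr1 showed its highest values where endothelial markers did. It read 6.6, 8.8 and 10.36 log2 (lowest, median and highest) in mature luminal cells and 6.71, 9.24 and 10.83 in luminal progenitors, against 8.13, 10.02 and 12.69 in stem cells. The 2 highest values, 12.69 and 12.61, were both from 3-week stem cells, where the endothelial list averaged 10.94 and 11.07, above the other 21 arrays (4.56 to 9.15). In pregnancy the luminal progenitor arrays (9.31 at D10 and 10.83 at D16) lay above the stem arrays (8.13 and 8.91 at D10 and 8.74 at D16). The difference between mature luminal and stem cells was -1.32 ± 0.36 (adjusted p = 0.043), lost without any of 12 single arrays (adjusted p up to 0.146), with quantile normalization (-1.17, adjusted p = 0.0662) and without both arrays of highest Gapdh 3′ bias (-1.52, adjusted p = 0.0597). The part of endothelial RNA in these values was not tested. Ackr2 had its 2 highest values on the same arrays (8.22 and 7.68). At D16 and in retired breeders its mature luminal (4.48 and 5.56) and luminal progenitor (5.12 and 5.33) arrays lay above the stem arrays (4.16 and 4.61).

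Cxcl17 and Ccl9 rose in mature luminal cells. Cxcl17, a mucosal chemokine that attracts myeloid cells, read 5.26, 9.43 and 11.56 log2 (lowest, median and highest) in mature luminal cells, against 4, 6.86 and 8.56 in stem cells. Within each stage shared by both types every mature luminal array was above every stem array, while the ranges over all stages overlapped. The difference was 2.32 ± 0.42 (adjusted p = 0.00496) and kept an adjusted p of at most 0.0161 on leaving out any array, while within arrays titled replicate 1 it was 2.26 (adjusted p = 0.0729) and within the others 2.39 (adjusted p = 0.0372). Luminal progenitors read 6.06, 7.78 and 8.43. Ccl9, a mouse CC ligand of Ccr1, read 5.96, 8.35 and 10.76 in mature luminal cells, against 4.7, 6 and 8.32 in stem cells, a difference of 2.14 ± 0.60 (adjusted p = 0.0484). That call was lost without any of 12 single arrays (adjusted p up to 0.119), with no filter on low values (adjusted p = 0.0532), without both arrays of highest Gapdh 3′ bias (2.21, adjusted p = 0.102) and within both subsets by replicate number (1.42 and 2.24, adjusted p = 0.329 and 0.0859).

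**Figure D2:**
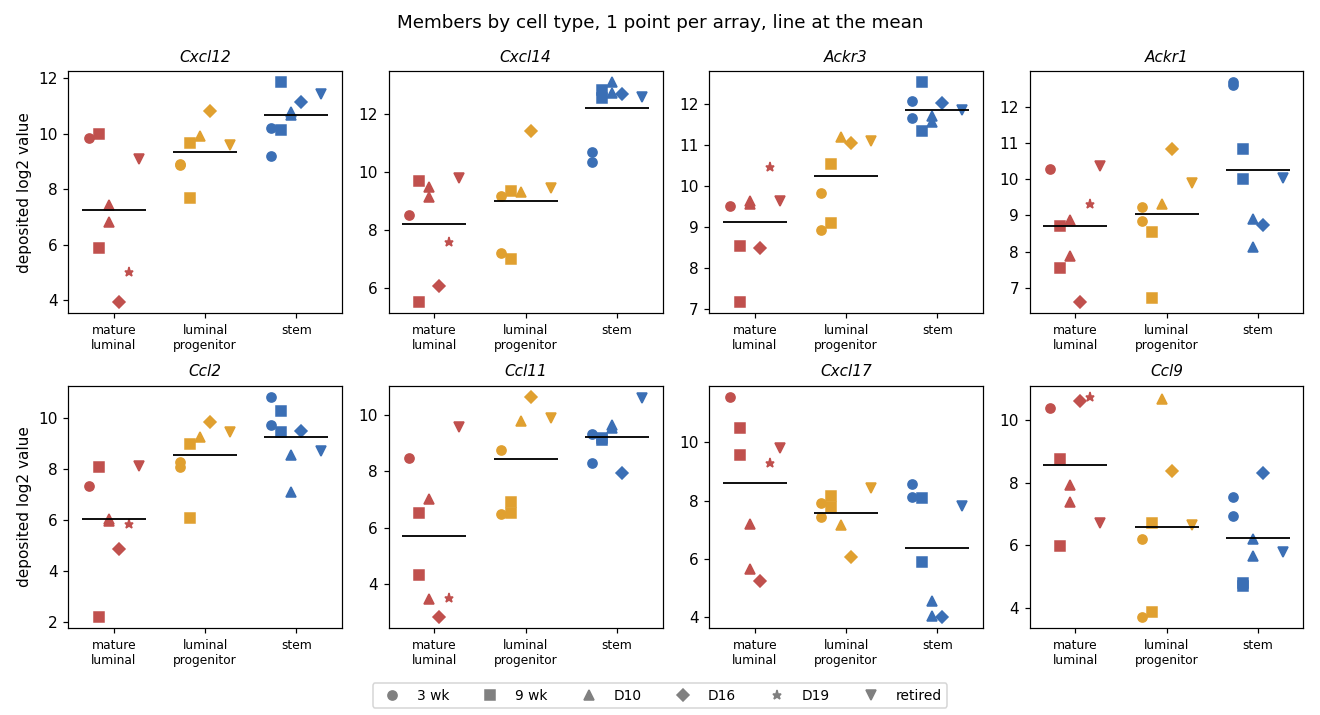
Deposited log2 values of 8 members on each array, in mature luminal cells (left), luminal progenitors (middle) and stem cells (right), with marker shapes for the stage and a line at the mean of the arrays of a type. Ackr3 in stem cells starts at 11.33, above every luminal array, while Cxcl17 and Ccl9 have their highest arrays in mature luminal cells, at 11.56 and 10.76.

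With the replicate block, 16 of 44 members differed between mature luminal and stem cells (19.7% of all genes did) and 8 of 44 between luminal progenitors and stem cells (14.4% of all genes). Those added between mature luminal and stem cells were the T cell and monocyte attractant Ccl5 (1.75 ± 0.51, adjusted p = 0.0313), the mucosal ligand Ccl28 (1.17 ± 0.35, adjusted p = 0.0332), Cxcl5 (1.54 ± 0.41, adjusted p = 0.019), Cxcl9 (-1.26 ± 0.39, adjusted p = 0.0374), Cxcr4 and the skin-associated ligand Ccl27a (-0.72 ± 0.24, adjusted p = 0.0499). Without the block their adjusted p lay between 0.0699 and 0.651. Without the 3-week mature luminal array, the unblocked differences of Ccl5 and Ccl28 were 1.06 and 0.52, against 1.78 and 1.35 with it, and that array held the highest values of both (12.18 and 8.45) and of the leukocyte list.

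Between luminal progenitors and stem cells the block added Cxcl2, Cxcl3 and Cxcl5, which share Cxcr2 as receptor, at 0.71 ± 0.22, 2.47 ± 0.41 and 1.35 ± 0.41 (adjusted p = 0.0477, 0.00221 and 0.0427). It also added Xcl1, a product of NK and T cells (1.69 ± 0.45, adjusted p = 0.0252), and the membrane-anchored ligand Cx3cl1 (-0.97 ± 0.24, adjusted p = 0.0189). Cxcl3 read 6.34, 8.39 and 10.17 log2 (lowest, median and highest) in luminal progenitors, against 2.92, 5.68 and 9.81 in stem cells. In the same comparison 1 of 5 neutrophil and mast cell markers rose, and 3 did with the block (median 3.12), with S100a8 at 3.12 ± 0.78, and the list averaged 3.32 to 8.27 in luminal progenitors, against 3.24 to 5.5 in stem cells. Their part in the chemokine values was not tested. Xcl1 was at 7.82 and 5.74 on the D10 and D16 luminal progenitor arrays, against 0.87 to 4.31 in stem cells, and its difference was 0.89 without the D10 array. Those 2 arrays had the highest means of the 7 T and NK cell markers (7.64 and 6.4, against 2.09 to 5.67 on the others), among them Gzmb at 6.17 and 4.34. Whether lymphocyte RNA accounts for Xcl1 was not tested.

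Pregnancy was set against 9-week virgins, with D10 and D16 averaged and the 3 cell types given equal weight. Where the only array of a pregnant group was left out, its cell type kept the other day alone. Without both pregnant luminal progenitor arrays, that cell type dropped out of the average. Pregnant cells differed in 6 of 44 members, 3 lower and 3 higher (limma, adjusted p under 0.05), against 7.13% of all genes (3.36% lower and 3.77% higher). At an unadjusted p under 0.05 the counts were 17 of 44 members and 25.0% of all genes. Those that fell were the CXC ligands Cxcl15, Cxcl17 and Cxcl13, and those that rose were the CC ligands Ccl20, Ccl9 and Ccl6. No receptor of the 13 tested passed. The median difference over the 16 CC ligands was 0.54 log2 and over the 13 CXC ligands -0.73, beside 0.10 over all genes. With the replicate block 9 of 44 passed (15.6% of all genes), the added ones being Cxcl5 (-2.68 ± 0.43, adjusted p = 0.00164), Cxcl1 (-0.58 ± 0.18, adjusted p = 0.0473) and Ackr4 (-1.08 ± 0.30, adjusted p = 0.032). Of the other two probe sets of Ackr4, 1 differed by -0.96 and 1 by 0.58, in the opposite direction. Epithelial markers moved in the same comparison: 4 of 4 hormone-sensing markers fell (median -3.15), while 5 of 10 basal markers and 6 of 7 milk genes rose (medians 1.81 and 5.96). Their part in the chemokine differences was not tested. All stage comparisons share the 9-week virgin arrays. These include arrays titled replicate 1 in each cell type, while no D16, retired or pregnant luminal progenitor array was so titled. Stage and replicate number were therefore not balanced.

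**Figure D3:**
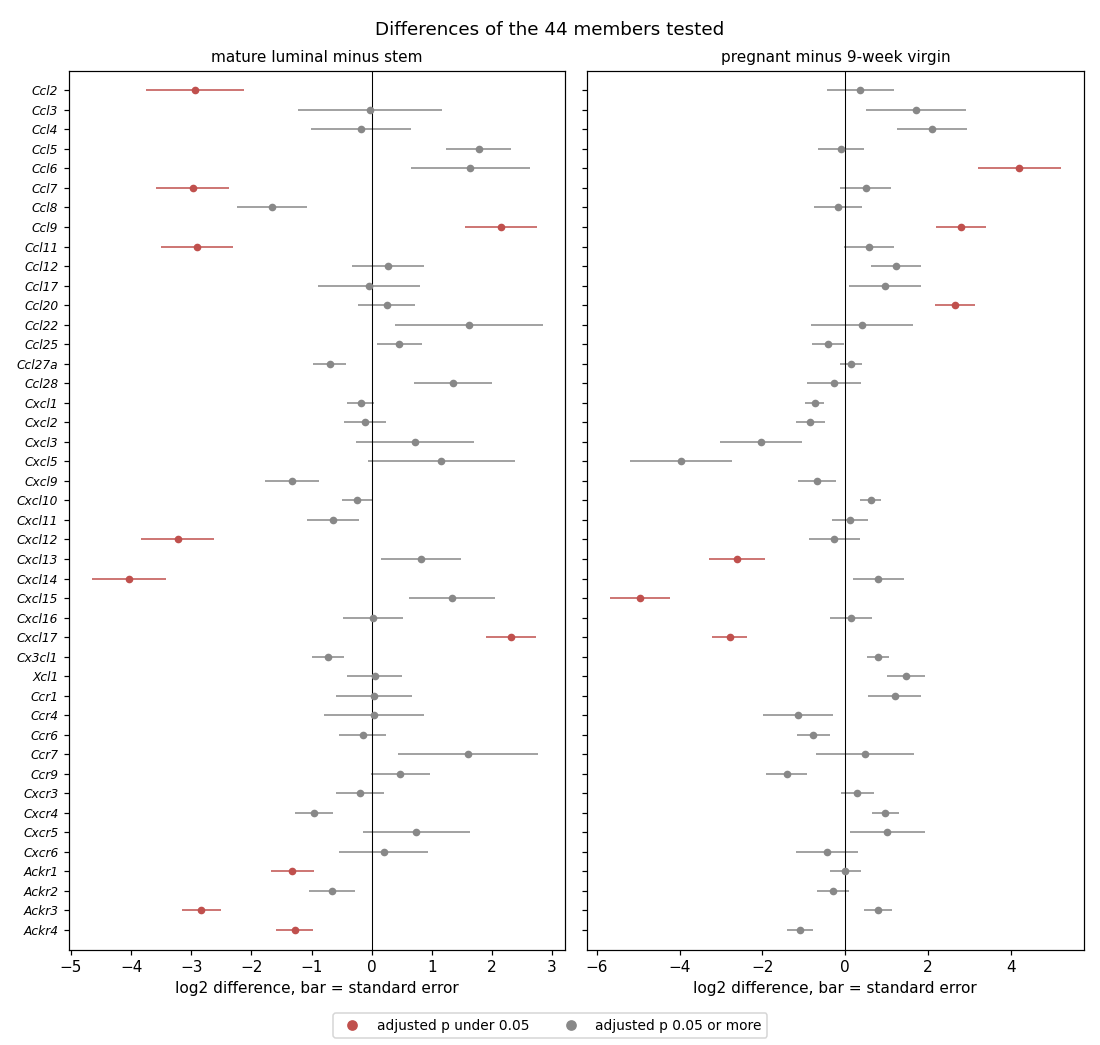
Log2 differences with their standard errors for the 44 members tested, mature luminal minus stem cells (left) and pregnant (D10 and D16) minus 9-week virgin (right), with members at an adjusted p under 0.05 in red. In mature luminal cells 8 members are red on the lower side and 2 on the higher side, and in pregnancy 3 lie on each side.

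Cxcl15, a CXC ligand known as lungkine that attracts neutrophils in the mouse lung, showed the largest fall. Pregnant arrays read 1.73, 5.69 and 6.33 log2 (lowest, median and highest, n = 8), against 7.98, 11.04 and 11.37 in 9-week virgins (n = 6). The stages did not overlap, and the D19 mature luminal array was at 3.95. The 3-week virgins (6.95 to 10.82) and retired breeders (12.05, 10.6 and 9.88 in mature luminal, luminal progenitor and stem cells) lay above every pregnant array. The difference was -4.96 ± 0.73 (adjusted p = 0.0027), with -7.28 within titled replicate 1 (adjusted p = 0.00644) and -3.74 within the other arrays (adjusted p = 0.00381). Its second probe set fell by 6.11. Here and for Cxcl13 and Ccl20, the value within titled replicate 1 compared D10 alone with 9-week virgins. That subset held no D16 array and no pregnant luminal progenitor array.

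Cxcl17 fell in pregnancy over the 3 cell types, and within them the test passed in mature luminal cells. Mature luminal cells read 7.19, 5.66 and 5.26 log2 in pregnancy, against 9.55 and 10.48 in 9-week virgins. Luminal progenitors read 7.15 and 6.06 in pregnancy, against 7.78 and 8.14 in 9-week virgins. Stem cells read 4.05, 4.55 and 4 in pregnancy, against 8.09 and 5.89 in 9-week virgins. Pregnant and virgin arrays did not overlap within a cell type, and the differences within luminal progenitors (-1.36 ± 0.76, adjusted p = 0.471) and stem cells (-2.84 ± 0.71, adjusted p = 0.173) did not pass. The D19 mature luminal array read 9.3, close to the virgin values, and retired breeders read 9.8, 8.43 and 7.82. The difference was -2.79 ± 0.42 (adjusted p = 0.00316), and within the arrays other than titled replicate 1 it was -2.72 (adjusted p = 0.0628).

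Cxcl13, the B cell attractant that signals through Cxcr5, read 3.73, 6.34 and 8.92 log2 (lowest, median and highest) in pregnancy, against 7.44, 9.02 and 9.98 in 9-week virgins. Luminal progenitors differed least, at 8.92 (D10) and 8.44 (D16), against 9.96 and 7.9 in 9-week virgins, so the ranges overlapped. The difference was -2.61 ± 0.67 (adjusted p = 0.0383). It was lost on leaving out any of 12 single arrays (adjusted p up to 0.132) and within the arrays other than titled replicate 1 (-1.44, adjusted p = 0.286), and it was -4.21 within titled replicate 1 (adjusted p = 0.0265). Cxcr5 read above the array median on 0 of 23 arrays.

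Ccl20, the ligand of Ccr6 that attracts dendritic and Th17 cells, was higher in pregnancy. Pregnant arrays read 4.64, 5.8 and 7.5 log2 (lowest, median and highest), against 0.84, 3.96 and 4.42 in 9-week virgins, with no overlap. The 3-week virgins read 4.08 to 6.58 and overlapped the pregnant arrays, and retired breeders read 4.18, 3.04 and 2.82. The difference was 2.65 ± 0.48 (adjusted p = 0.00788). It was 1.08 within titled replicate 1 (adjusted p = 0.559) and 3.29 within the other arrays (adjusted p = 0.0496). Ccr6 lay above the array median on 1 of 23 arrays, at 2.36 to 4.04 in pregnancy and 2.95 to 5 in 9-week virgins.

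Ccl6 and Ccl9, neighbouring mouse CC ligands of Ccr1 made by myeloid cells among others, rose with wider spread. Both were also lower on arrays titled replicate 1 (-2.5 and -1.27 log2 with stage and cell type in the fit). Ccl6 read 5.67, 6.59 and 9.8 log2 (lowest, median and highest) in pregnancy, against 1.46, 2.52 and 6.32 in 9-week virgins, a difference of 4.21 ± 1.0 (adjusted p = 0.0275). Ccl9 read 5.66, 8.13 and 10.68 in pregnancy, against 3.87, 5.38 and 8.75 in 9-week virgins, a difference of 2.80 ± 0.61 (adjusted p = 0.0184). Both had their highest pregnant values among the luminal progenitor arrays D10 (9.8 and 10.68) and D16 (8.71 and 8.37) or the D16 mature luminal array (Ccl9, 10.61). Both calls were lost without the 2 pregnant luminal progenitor arrays, at 3.77 (adjusted p = 0.119) and 2.08 (adjusted p = 0.153). Single arrays that ended the call of Ccl6 were D10 luminal progenitor (4.03, adjusted p = 0.0659) and replicate 1 of 9-week mature luminal (3.58, adjusted p = 0.082), luminal progenitor (3.49, adjusted p = 0.0837) and stem cells (3.95, adjusted p = 0.0567). For Ccl9 they were D10 luminal progenitor (2.41, adjusted p = 0.0682), D16 mature luminal (2.31, adjusted p = 0.0636), and replicate 1 of 9-week mature luminal (2.33, adjusted p = 0.0524) and luminal progenitor cells (2.33, adjusted p = 0.0551).

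Leukocyte markers were read beside these 2 ligands. The mean of 14 macrophage and dendritic markers ran from 4.08 to 7.92 log2 on pregnant arrays (D10 and D16), against 4.07 to 6.24 in 9-week virgins. Of them 0 passed the test and 4 had an unadjusted p under 0.05 (median 1.30). The D19 mature luminal array, which was not in the pregnancy comparison, read 8.57 for Ccl6 and 10.76 for Ccl9. Its macrophage and dendritic mean (3.98) and leukocyte mean (2.61) were the lowest of the 23 arrays. It is titled replicate 1, and pan-leukocyte markers were lower on arrays so titled (median -2.75 log2). The part of leukocyte RNA in Ccl6 and Ccl9 was not tested. Ccr1 read 6.94 and 4.72 on the D10 and D16 luminal progenitor arrays and 1.22 to 4.39 on the rest.

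**Figure D4:**
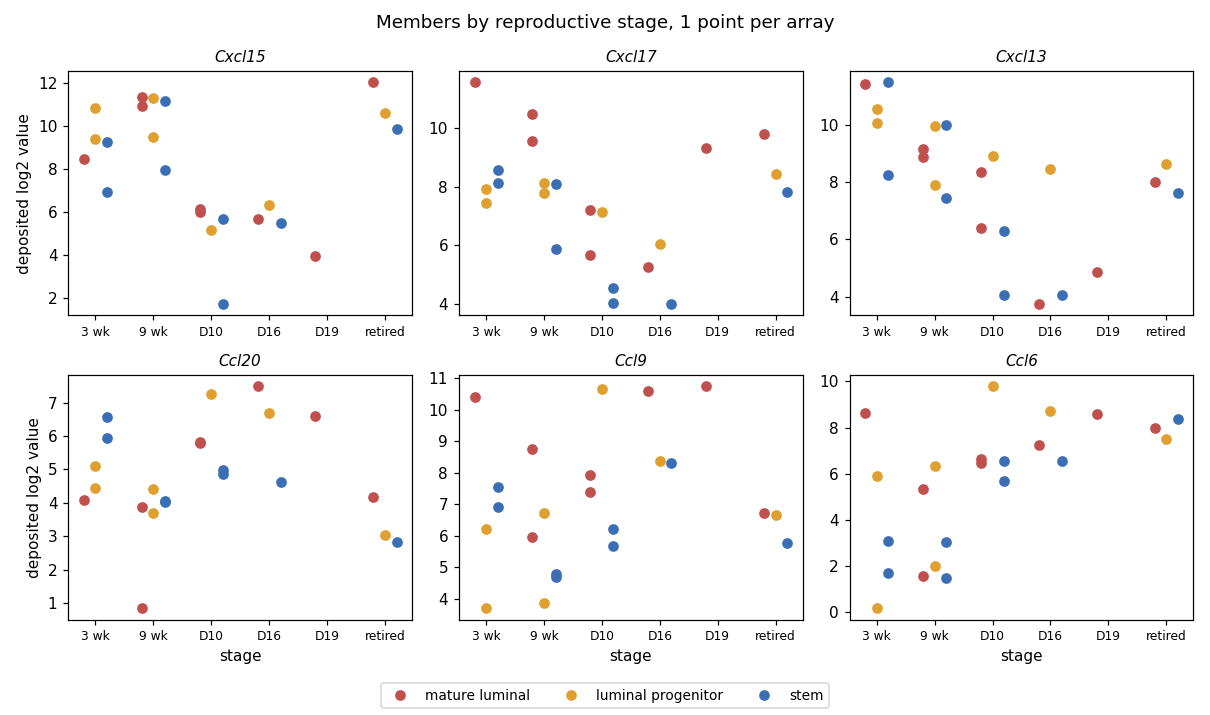
Deposited log2 values of the 6 members called in pregnancy, by stage in order, with colours for the cell type and 1 point per array. Cxcl15 is at 6.33 or below on every array of pregnancy, and Ccl20 is at 4.64 or above.

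Within cell types, the pregnancy comparison rested on few arrays. In mature luminal cells 3 of 44 members passed, against 2.25% of all genes (1.66% lower and 0.592% higher), and 10 had an unadjusted p under 0.05, against 12.8%. They were Cxcl17 (-4.17 ± 0.71, adjusted p = 0.0109), Ccl20 (4.30 ± 0.81, adjusted p = 0.0187) and Cxcl15 (-5.27 ± 1.23, adjusted p = 0.0498). Ccl20 read 5.78, 5.83 and 7.5 log2 in pregnant mature luminal cells, against 3.87 and 0.84 in 9-week virgin ones, and without the 9-week array at 0.84 the difference was 2.78 (adjusted p = 0.139). Its call was also lost without D10 replicate 2 (4.29, adjusted p = 0.0516) and without D16 (3.45, adjusted p = 0.127). Cxcl17 lost its call without replicate 2 of 9-week virgins (-3.71, adjusted p = 0.11) and without D16 (-3.59, adjusted p = 0.0728). Cxcl15 lost it on leaving out any of 13 arrays (adjusted p up to 0.243), with quantile normalization (-4.98, adjusted p = 0.0638) and with no filter on low values (adjusted p = 0.0527).

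The replicate block gave 6 of 44 in mature luminal cells (7.23% of all genes), adding Ackr4 (-2.0 ± 0.49, adjusted p = 0.0272), Cxcl5 (-2.61 ± 0.70, adjusted p = 0.0394) and Ccr7 (-2.63 ± 0.72, adjusted p = 0.0449). Ackr4 read 7.72, 7.1 and 5.45 in pregnant mature luminal cells, with 6.56 at D19, against 8.66 and 8.2 in 9-week virgin ones, and its other probe sets differed by -1.97 and -0.19. The unblocked difference of Ccr7 was -1.72 ± 2.0, and without replicate 2 of 9-week mature luminal cells it turned to 0.13.

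In stem cells 0 of 44 passed (limma, 8 at an unadjusted p under 0.05, 18.2% of members against 12.1% of genes), where 0.26% of all genes did. With the replicate block 2 passed, Cxcl15 (-4.78 ± 1.13, adjusted p = 0.0485) and Cxcl17 (-2.77 ± 0.66, adjusted p = 0.0495), against 2.2% of all genes. Cxcl15 read 1.73, 5.68 and 5.49 log2 in pregnant stem cells, against 11.15 and 7.98 in 9-week virgin ones. In luminal progenitors 0 of 44 passed (0.156% of all genes), with 14 at an unadjusted p under 0.05 (31.8% of members against 12.8% of genes), and 0 passed with the block (1.26% of all genes). There the median difference of the 16 CC ligands was 2.26 log2, beside 0.25 over all genes. The largest was Ccl3, a myeloid and T cell product, at 9.5 and 7.92 in pregnancy, against 0.78 and 5.77 in 9-week virgins (5.44 ± 2.19, adjusted p = 0.323). No pregnant luminal progenitor array was titled replicate 1, while the 9-week array at 0.78 was, so stage and replicate number were not balanced here. Without that array the difference of Ccl3 was 2.94. Among the CC ligands, Ccl3, Ccl6, Ccl9, Ccl12, Ccl22 and Ccl28 were lower on arrays titled replicate 1, Ccl3 by 2.98 with stage and cell type in the fit.

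The same luminal progenitor arrays carried markers of other cells. For the D10 and D16 arrays the leukocyte mean was 9.32 and 8.37, against 3.64 and 7.01 in 9-week virgins, and the fibroblast mean 9.62 and 10.02, against 6.21 and 6.37. Their part in the CC ligand values was not tested. The pregnancy difference of mature luminal cells minus that of stem cells passed for 0 of 44 members (limma, 5 at an unadjusted p under 0.05, against 5.86% of genes), where 0.013% of all genes did. With the block it passed for 0 members and 0.735% of all genes. Its largest value was that of Ccl20 (3.56 log2), which was 2.05 without the 9-week mature luminal array at 0.84. No member was shown to respond differently in these cell types.

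Three-week virgins were set against 9-week virgins over the 3 cell types. Of 44 members 0 passed (limma, 9 at an unadjusted p under 0.05, 20.5% of members against 10.9% of genes), where 0.176% of all genes did. With the replicate block 2 passed (2.65% of all genes), Ackr1 (2.0 ± 0.37, adjusted p = 0.0169) and Cxcl10 (1.38 ± 0.26, adjusted p = 0.017). Their unblocked differences were 1.94 ± 0.41 and 1.34 ± 0.29, both at an adjusted p of 0.0938. Ackr1 read 10.29 in mature luminal cells, 9.24 and 8.84 in luminal progenitors and 12.69 and 12.61 in stem cells at 3 weeks, against 8.71 and 7.54, 8.54 and 6.71, and 10.83 and 10.01 at 9 weeks. The 3-week arrays were higher within each cell type.

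Cxcl10 read 12.1 in mature luminal cells, 11.01 and 11.39 in luminal progenitors and 12.72 and 12.94 in stem cells at 3 weeks, against 10.71 and 9.66, 10.97 and 10.23, and 11.91 and 10.74 at 9 weeks. Its relative Cxcl9 had its 2 highest values, 12.45 and 11.15, in 3-week stem cells, as did Cxcl11 (6.39 and 6.22). In the same comparison 3 of 12 endothelial markers rose (median 1.63), as did 2 of 5 red cell and platelet markers (median 2.16) and 0 of 9 interferon-pathway genes (median 0.57). The red cell and platelet mean was 6.76 and 6.96 on the 3-week stem arrays, against 4.57 and 3.57 on the 9-week stem arrays. The part of these markers' cells in the chemokine values was not tested. The largest difference among members was that of Ccl3 (2.12 log2), which was 1.14 without the 3-week mature luminal array and so over the other cell types.

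Retired breeders, with 1 array per cell type, were set against 9-week virgins. Of 44 members 0 passed (limma, 6 at an unadjusted p under 0.05, 13.6% of members against 7.24% of genes), where 0.0065% of all genes did, and with the block 0 members and 0.0195% of all genes passed. Ccl6 had the largest difference, at 7.96, 7.52 and 8.36 log2 in retired mature luminal, luminal progenitor and stem cells, against 1.55 and 5.34, 2.02 and 6.32, and 1.46 and 3.02 in 9-week virgins (4.66 ± 1.28, adjusted p = 0.592). All 3 retired values lay above all 6 virgin values. No retired array was titled replicate 1, while the virgin arrays at 1.55, 2.02 and 1.46 were. Ccl6 was lower on arrays titled replicate 1 (-2.5 log2 with stage and cell type in the fit), so stage and replicate number were not balanced here. Ccl11 read 9.55, 9.89 and 10.59, against 6.51 and 4.32, 6.91 and 6.52, and 9.17 and 9.09 (2.92 ± 0.77, adjusted p = 0.592).

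The replicate number in the sample titles separated the arrays in many members. Arrays titled replicate 1 differed from those titled replicate 2 in 14 of 44 members with the stage and cell type in the fit, against 31.7% of all genes (14.7% higher and 17.0% lower). The members' share was 31.8%, close to that background. The test rested on the 7 groups holding both numbers, because a group of 1 array adds nothing to the replicate term. Ranges below cover all 8 arrays titled replicate 1 and the 15 others. Higher on replicate 1 were Cxcl5 by 3.83 ± 0.39, Cxcl3 by 2.95 ± 0.40 and Cxcl2 by 0.85 ± 0.21 log2 (adjusted p = 0.000129, 0.00043 and 0.0101). Cxcl1 and Cxcl15, which also attract neutrophils, did not pass (adjusted p = 0.0589 and 0.384). Also higher were Cxcl16, a transmembrane ligand (1.42 ± 0.24, adjusted p = 0.00113), its receptor Cxcr6 (1.89 ± 0.46, adjusted p = 0.00863), Cxcl14 (1.33 ± 0.44) and Ccr4 (1.74 ± 0.62). Cxcr6 and Ccr4 lay above the array median on 0 arrays.

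Lower on replicate 1 were 7 members. Ccr7, the lymph node homing receptor of dendritic and T cells, fell by 3.62 ± 0.41 log2 (adjusted p = 0.000195) and Ccl22, a dendritic cell product, by 3.56 ± 0.57 (adjusted p = 0.000932). The others were Ccl3 (-2.98), Ccl6 (-2.5), Ccl28 (-1.77), Ccl12 (-1.49) and Ccl9 (-1.27). Ccr7 read 2.47, 3.12 and 4.96 (lowest, median and highest) on replicate 1, against 3.99, 6.81 and 9.41 on the others. Cxcl5 read 5.11, 8.39 and 9.85 on replicate 1, against 1.35, 3.97 and 7.41 on the others. In the 7 groups with both numbers, replicate 1 was the higher array for Cxcl5 and the lower for Ccr7 each time.

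**Figure D5:**
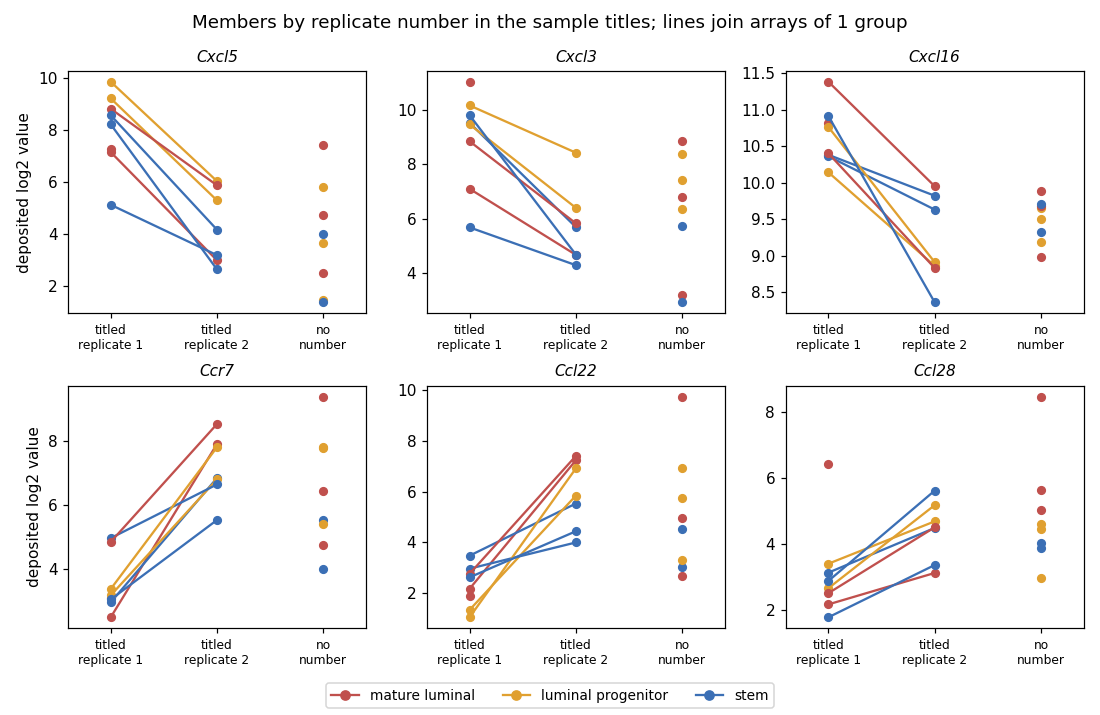
Deposited log2 values of 6 members on arrays titled replicate 1, titled replicate 2 and without a number, with lines joining the 2 arrays of 1 group and colours for the cell type. Every line falls for Cxcl5, Cxcl3 and Cxcl16 and rises for Ccr7, Ccl22 and Ccl28.

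Leukocyte markers differed by replicate number too. All 5 pan-leukocyte markers were lower on replicate 1 (median -2.75 log2), as were 8 of 14 macrophage and dendritic, 5 of 7 T and NK cell, 4 of 5 B cell and 3 of 5 neutrophil and mast cell markers, while 2 of the 14 macrophage and dendritic markers were higher. The leukocyte mean was 2.61 to 5.55 on replicate 1, against 5 to 9.62 on the others. The labels do not say what the replicate number stands for, and its part in the differences was not tested. Among NF-κB and inflammatory genes, 5 of 28 were higher and 5 lower on replicate 1, Il1b among the lower (-2.25), and 4 of 9 interferon-pathway genes were higher. Over all genes 14.7% were higher and 17.0% lower. Of the 5 genes whose promoters are printed, Cxcl2 and Cxcl3 passed the test by replicate number. Cxcl1 (0.45 ± 0.17, adjusted p = 0.0589), Ccl20 (0.70 ± 0.39, adjusted p = 0.193) and Cxcl15 (0.76 ± 0.64, adjusted p = 0.384) did not pass. The genes were not tested against each other, so a difference between them is not shown.

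Ligands and their receptors were also set side by side, each on its own scale. For Cxcl16 and Cxcr6, the ligand lay between 8.36 and 11.38 log2 on all arrays and the receptor between 0.39 and 4.45. Cx3cl1 lay between 6.49 and 9.42, and its receptor Cx3cr1 exceeded the array median on 1 array. Ccl25 lay between 6.26 and 8.65 and Ccr9 between 0 and 5.92, above the array median on 7 arrays. Ccl28 exceeded the array median on 6 arrays and Ccr10 on 1. Ccr7 exceeded it on 16 arrays, while its ligands Ccl19 and Ccl21 were not analysed here because their probe sets list several symbols.

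Genes around the chemokine system were taken from 4 lists. Over all genes, 8.34% passed for mature luminal against stem cells, 4.38% for luminal progenitors against stem cells and 7.13% in pregnancy. At 3 weeks 0.176% did and in retired breeders 0.0065%. Of 12 other chemokine-like genes and receptors, 1 rose and 1 fell in mature luminal against stem cells, namely Cmtm8 (1.72 ± 0.39, adjusted p = 0.0173) and the chemerin receptor Cmklr1 (-3.28 ± 0.77, adjusted p = 0.0221). Of 21 signalling genes 4 fell there, the kinase Grk5 (-1.83 ± 0.36), the exchange factor subunit Elmo1 (-1.81 ± 0.37), the G protein subunit Gnai1 (-2.07 ± 0.48) and the regulator Rgs2 (-1.11 ± 0.29). Of 28 NF-κB and inflammatory genes 4 fell, the adhesion molecules Icam1 (-1.08 ± 0.18) and Vcam1 (-2.14 ± 0.36), Ptgs2 (-1.55 ± 0.30) and the macrophage growth factor Csf1 (-1.46 ± 0.30). Of 9 interferon-pathway genes 0 passed there (3 at an unadjusted p under 0.05), and the list medians lay between -0.55 and 0.05 beside 0.03 over all genes.

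In luminal progenitors against stem cells, 1 of 12 (Cmtm8, higher), 3 of 21 (Gnai1, Grk5 and Rgs2, lower), 4 of 28 (Lif higher, Icam1, Csf1 and Vcam1 lower) and 0 of 9 passed. In pregnancy, 0 of 12, 1 of 21, 6 of 28 and 2 of 9 passed. The G protein regulator Rgs16 rose by 2.76 ± 0.53 (adjusted p = 0.0111), the RANK receptor Tnfrsf11a by 2.29 ± 0.36 (adjusted p = 0.00409) and the NF-κB inhibitor Nfkbie by 1.47 ± 0.28 (adjusted p = 0.0101). The interleukin-1 receptor Il1r1 fell by 2.13 ± 0.37 (adjusted p = 0.00681) and Ptgs2 by 1.66 ± 0.30 (adjusted p = 0.00851), as did the interferon signal transducer Stat2 by 1.92 ± 0.39 (adjusted p = 0.0144) and Gbp2 by 1.13 ± 0.26 (adjusted p = 0.0259). At 3 weeks the platelet chemokine Pf4 passed alone among the 4 lists (4.08 ± 0.60, adjusted p = 0.0484), and in retired breeders 0 genes of the 4 lists did.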

How the data were processed

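RNA of 23 samples was hybridised to 1 array each. The deposited values are log2 expression signals per probe set, as the authors processed them from the scans, and lie at or above 0; per the labels, polyA RNA was amplified to biotinylated cRNA. The software that made the log2 signals is not named in the labels. They were used as deposited. Probe sets with 1 gene symbol were kept, and each gene was represented by that of highest mean, giving 18193 genes, of which 15378 lay above the 40th percentile of their array on at least 2 arrays. All 16 groups of stage and cell type entered 1 limma fit (limma 3.58.1, R 4.3.3), and p-values were two-sided and adjusted by the Benjamini-Hochberg method over these genes, with a threshold of 0.05. A fold change from a low signal includes background, and 0 is a floor. The members called in any comparison by the fit with or without a replicate term are named, with the 3 ligands and 3 receptors of highest mean, the largest difference in each comparison and up to 4 genes per pathway list by smallest p. The members and lists were chosen with earlier results of these data known. In 21 of 21 pairs of groups holding both replicate numbers, same-numbered arrays deviated together (correlation 0.303 to 0.682), so the numbers were taken to pair the samples; the 8 arrays without number 1 or 2 entered the block with replicate 2. Alternatives were the replicate block, quantile normalization, no filter, values under the array median set to it, the mean over probe sets of a gene, single arrays left out and subsets by replicate number, and 2 added after seeing the data (without both pregnant luminal progenitor arrays, and without the 2 arrays of highest Gapdh 3′ bias). Where an omission emptied a group, its stage, day of pregnancy or cell type dropped out of the average. Subsets by replicate number were fitted with additive terms for stage and cell type. The number of arrays limits the precision, and 9 groups hold 1 array.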

Additional observations from a re-analysis of the deposited data

How the results depend on the processing

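The replicate block gave 8 members called for luminal progenitors against stem cells (3 without it), 16 for mature luminal against stem cells (10), 2 for mature luminal cells against luminal progenitors (0), 2 for 3-week against 9-week virgins (0), 2 for pregnant against virgin stem cells (0) and 6 for pregnant against virgin mature luminal cells (3). It changed no other count of members by over 1.5 times, and 23 of 49 named differences passed only with it. Over all genes it raised the calls in the same 6 comparisons to 2220, 3023, 153, 408, 339 and 1112, against 673, 1283, 19, 27, 40 and 346 without it, and for pregnancy over all cell types to 2404, against 1096. Raising values below the array median to it gave 3 members at 3 weeks and 5 in pregnant luminal progenitors (0 each as deposited). Within arrays titled replicate 1, 3 members passed for mature luminal against stem cells. Within all other arrays, 6 passed there, 1 between mature luminal cells and luminal progenitors and 2 in pregnancy. Without the 2 arrays of highest Gapdh 3′ bias, an alternative chosen after seeing the data, 5 passed between luminal progenitors and stem cells. Leaving out single arrays gave 1 to 5 members for luminal progenitors against stem cells, 4 to 11 for mature luminal against stem cells, 0 to 1 for mature luminal cells against luminal progenitors, 3 to 7 in pregnancy and 0 to 4 in pregnant mature luminal cells. Directions turned for 3 named differences, none of them passing without the block: within titled replicate 1, Cxcl2 between luminal progenitors and stem cells was -0.041 log2 and Ccl8 between mature luminal cells and luminal progenitors 0.007, and for Ccr7 in pregnant mature luminal cells single omissions gave -3.58 to 0.13. Quantile normalization moved the median of all genes at 3 weeks to -0.06, against 0.11 as deposited, and the share of higher calls between luminal progenitors and stem cells to 30.9%, against 17.8%. It left 44 of 49 named differences on their side of the threshold, no filter left 47, and the mean of probe sets 47. The cause was not tested for any of these changes. For alternatives other than the replicate block, the share of all genes called was not set beside the counts of members. Those counts are therefore no result about the members in particular.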
